A study of Sus scrofa with 3 samples.

Results

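The let-7 and miR-98 family of porcine skeletal muscle comprised 9 mature miRNAs, out of 276 mature miRNAs listed under porcine names. Members were taken by name, as every porcine mature name that begins with let-7 or miR-98, whatever its letter or arm, and the rule used no read count. They were ssc-let-7a, ssc-let-7c, ssc-let-7d-5p, ssc-let-7d-3p, ssc-let-7e, ssc-let-7f, ssc-let-7g, ssc-let-7i and ssc-miR-98, and all 9 were detected in each library. The members lay on 10 hairpins, since ssc-let-7a and ssc-let-7f each had 2 hairpins and the let-7d arms shared 1. Small RNA was sequenced from the psoas major, a loin muscle, of fattening pigs aged 63, 98 or 161 d. All pigs were castrated male hybrids of Landrace, Large White and Duroc, and their diet was changed by stages of body weight, so age and diet cannot be told apart. RNA of several pigs was pooled for each age, so each age had 1 library and the spread between pigs was not measured. The 63 d library listed 1464699 reads, the 98 d library 2418187 and the 161 d library 2242716. Levels are given as RPM, the reads of a miRNA scaled to a total of 1000000 listed reads, and the floor of 3 reads was 2.05, 1.24 and 1.34 RPM in the same order. All intervals are 95% intervals that cover counting error only. They treat reads as independent, but reads amplified by PCR without molecular identifiers are not independent molecules. The intervals may therefore be too narrow even for counting error.

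The let-7 miRNAs are among the most conserved animal miRNAs and were first described as regulators of developmental timing in the nematode. A miRNA guides silencing complexes to messenger RNAs mainly through its seed, the bases after the first one at the 5′ end, so members with 1 common seed can share targets. Known mammalian targets of the family include the RAS oncogenes, the chromatin protein HMGA2 and parts of the insulin-like growth factor pathway, and the RNA-binding protein LIN28 blocks the maturation of let-7 precursors in embryonic cells. In most tissues let-7 miRNAs become abundant as cells leave the proliferative state, and miR-98 is a member of the same family under another name.

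The sequences show how little separates the members and which of them carries another seed. Each is the representative read of the deposited files, identical in the 3 libraries and 22 nt long, written 5′ to 3′ as DNA with the seed (bases 2 to 8) in capitals.
ssc-let-7a: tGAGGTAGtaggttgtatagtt
ssc-let-7f: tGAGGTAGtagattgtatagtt
ssc-let-7c: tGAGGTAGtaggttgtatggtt
ssc-let-7e: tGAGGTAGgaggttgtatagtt
ssc-miR-98: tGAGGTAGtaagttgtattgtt
ssc-let-7d-5p: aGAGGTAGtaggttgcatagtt
ssc-let-7g: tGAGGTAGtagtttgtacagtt
ssc-let-7i: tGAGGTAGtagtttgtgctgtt
ssc-let-7d-3p: cTATACGAcctgctgcctttct

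The seed GAGGTAG was common to 8 members, and ssc-let-7d-3p, the read of the opposite arm of the let-7d hairpin, had the seed TATACGA. Counted from 1 at the 5′ end, with the base of ssc-let-7a first, ssc-let-7f differed from ssc-let-7a by G12A alone, ssc-let-7c by A19G alone and ssc-let-7e by T9G alone. The read of ssc-miR-98 differed by G11A and A19T, that of ssc-let-7d-5p by T1A and T16C, and that of ssc-let-7g by G12T and T18C. The most distant member from ssc-let-7a was ssc-let-7i, with G12T, A17G, T18C and A19T. Positions 12 and 19 each differed from ssc-let-7a in 3 members, whereas positions 2 to 8 did not differ in any of the 8. Of the 28 pairs among the 8, 3 pairs differed by a single base and 9 by 2 bases, so that a read with 1 mapping error can lie as close to a second member as to its own. How such reads were assigned is not given in the sources used here, and since each of the 8 had at least 1 other member within 2 bases, the values of all 8 are uncertain to that extent.

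Together the members held 124087, 221016 and 136539 reads in the libraries of 63, 98 and 161 d. This was 84718, 91397 and 60881 RPM, or 8.47% (8.43 to 8.52), 9.14% (9.10 to 9.18) and 6.09% (6.06 to 6.12) of all listed reads. The most abundant member, ssc-let-7a, had 42404, 40469 and 28465 RPM and held rank 3, 4 and 5 among the porcine miRNAs at 63, 98 and 161 d. Next came ssc-let-7f with 16659, 25278 and 14832 RPM. The 98 d library was the high one for ssc-let-7f, while ssc-let-7a was close to level at the first 2 ages and low at 161 d.

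A middle group of 3 members followed. The levels of ssc-let-7g were 6695, 8054 and 4789 RPM, those of ssc-let-7i 7989, 6190 and 4285 RPM, and those of ssc-let-7c 5578, 5625 and 4537 RPM at 63, 98 and 161 d. All 3 were lowest at 161 d, and ssc-let-7i was lower at each later age.

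The other members were less abundant than these. The levels of ssc-let-7d-5p were 1940, 1895 and 1143 RPM, those of ssc-miR-98 1485, 2159 and 1410 RPM, and those of ssc-let-7e 1256, 1239 and 1020 RPM. The least abundant member was ssc-let-7d-3p with 712, 488 and 400.4 RPM, at rank 59, 80 and 79 of the porcine miRNAs. Even this member had at least 898 reads in each library, so counting error was small beside the levels.

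**Figure D1:**
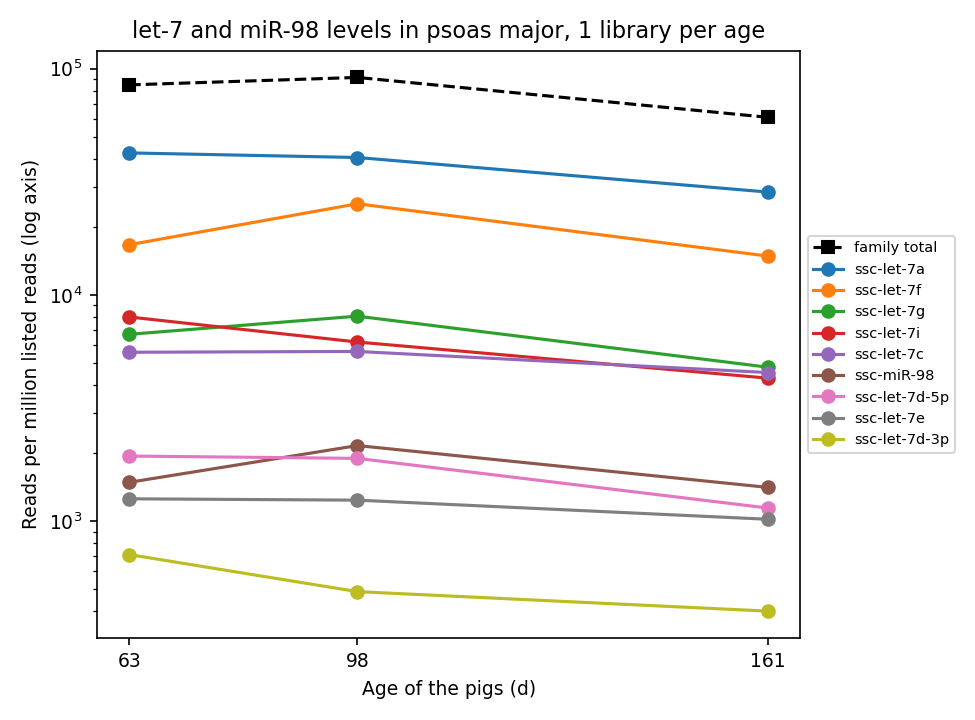
Level of each family member (colours) and of the family total (dashed black line) in RPM on a log axis, against the age of the pigs in days, with 1 library per age. The total stood at 84718, 91397 and 60881 RPM, and ssc-let-7f and ssc-miR-98 peaked at 98 d while ssc-let-7i and ssc-let-7d-3p were highest at 63 d.

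The order of the members changed with age, a comparison within each library that does not depend on scaling between libraries. At 63 d the order was ssc-let-7a, ssc-let-7f, ssc-let-7i, ssc-let-7g, ssc-let-7c, ssc-let-7d-5p, ssc-miR-98, ssc-let-7e and ssc-let-7d-3p. In this library ssc-let-7i exceeded ssc-let-7g by a ratio of 1.19 (1.16 to 1.23), but at 98 d ssc-let-7g exceeded ssc-let-7i by 1.30 (1.27 to 1.33). At 161 d ssc-let-7i had also passed below ssc-let-7c, by a ratio of 1.06 (1.03 to 1.09). At 63 d ssc-let-7d-5p exceeded ssc-miR-98 by 1.31 (1.24 to 1.38), and the order was the opposite at 98 d, with a ratio of 1.14 (1.09 to 1.19), and at 161 d, with 1.23 (1.17 to 1.30). Every pair of neighbours in the order differed beyond counting error in each library, the closest being ssc-let-7g over ssc-let-7c at 161 d with 1.06 (1.03 to 1.08). This holds for all reads. With reads without mapping error, ssc-let-7i and ssc-let-7c at 98 d were nearly level, at 6.06% and 6.02% of the family reads.

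The composition of the family differed between ages mainly in its 2 largest members. The share of ssc-let-7a in the family reads was 50.1% (49.8 to 50.3) at 63 d, 44.3% (44.1 to 44.5) at 98 d and 46.8% (46.5 to 47.0) at 161 d. The share of ssc-let-7f was 19.7% (19.4 to 19.9), 27.7% (27.5 to 27.8) and 24.4% (24.1 to 24.6). Reads of ssc-let-7a outnumbered those of ssc-let-7f by a ratio of 2.55 (2.51 to 2.58) at 63 d, 1.60 (1.58 to 1.62) at 98 d and 1.92 (1.89 to 1.94) at 161 d. Since the 2 reads differ at position 12 alone, this ratio rests on a single base. The share of ssc-miR-98 was also higher after 63 d, with 1.75% (1.68 to 1.83), 2.36% (2.30 to 2.43) and 2.32% (2.24 to 2.40). The share of ssc-let-7i was highest at 63 d with 9.43% (9.27 to 9.59), against 6.77% (6.67 to 6.88) at 98 d and 7.04% (6.90 to 7.18) at 161 d.

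**Figure D2:**
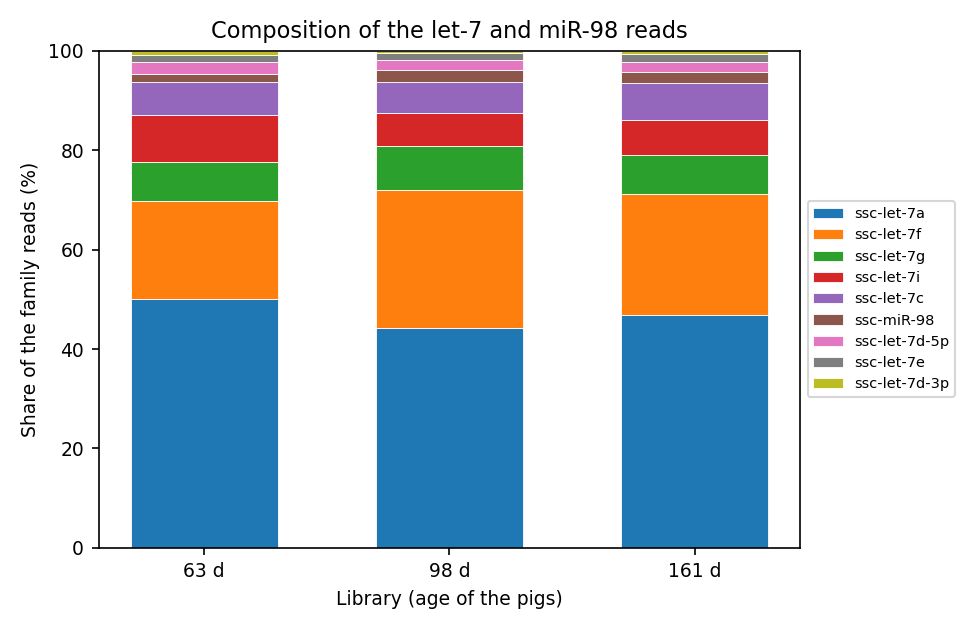
Share of each member in the reads of the family, in percent, stacked for the libraries of 63, 98 and 161 d. The part of ssc-let-7f was 19.7%, 27.7% and 24.4% and that of ssc-let-7a 50.1%, 44.3% and 46.8%.

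The first comparison asked how the family differed between 63 and 98 d. The members went different ways: ssc-let-7f, ssc-miR-98 and ssc-let-7g were higher at 98 d, ssc-let-7d-3p, ssc-let-7i and ssc-let-7a were lower, and the intervals of ssc-let-7c, ssc-let-7d-5p and ssc-let-7e held 1. The ratio of RPM at 98 d to 63 d was 1.52 (1.495 to 1.540) for ssc-let-7f, 1.45 (1.38 to 1.53) for ssc-miR-98 and 1.20 (1.17 to 1.23) for ssc-let-7g. It was 0.686 (0.631 to 0.746) for ssc-let-7d-3p, 0.775 (0.756 to 0.794) for ssc-let-7i and 0.954 (0.945 to 0.964) for ssc-let-7a. With scaling by DESeq2 size factors the ratio of ssc-let-7g was below 1, whereas ssc-let-7f and ssc-miR-98 were above 1 with each of the 4 scalings run. None of the 9 members reached a 2-fold difference, beside 16.9% of the 243 porcine miRNAs with at least 10 reads in either library. At a limit of 1.5-fold 1 member, ssc-let-7f, was higher, beside 34.2% of all porcine miRNAs tested. This call was lost with each of the 3 other scalings, where ssc-let-7f was at 1.31 with TMM factors, 1.25 with DESeq2 size factors and 1.35 without ssc-miR-133a-3p in the total. In these scalings ssc-let-7d-3p was past 1.5-fold in the direction of lower levels, and with DESeq2 size factors ssc-let-7i as well. The share of all porcine miRNAs past 1.5-fold in that direction was not computed for this pair. The median log2 fold was -0.02 over the members and 0.29 over all porcine miRNAs tested.

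For the family as a whole the total at 98 d was 1.08 times that at 63 d (1.07 to 1.09), but this direction depended on the scaling. The ratio was 0.959 when the reads of ssc-miR-133a-3p were left out of the totals, 0.932 with TMM factors and 0.886 with DESeq2 size factors. The muscle miRNA ssc-miR-133a-3p alone took 43.3%, 36.2% and 44.0% of the listed reads at 63, 98 and 161 d, so RPM of every other miRNA at 98 d were computed over a total in which it held a smaller part.

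The second comparison asked how the family differed between 98 and 161 d. All 9 members were lower at 161 d, each with an interval below 1, and the family total was 0.666 times that at 98 d (0.662 to 0.671). The ratio of RPM was 0.587 (0.579 to 0.595) for ssc-let-7f, 0.595 (0.581 to 0.609) for ssc-let-7g, 0.603 (0.574 to 0.633) for ssc-let-7d-5p and 0.653 (0.625 to 0.683) for ssc-miR-98, and these 4 members were past a limit of 1.5-fold with RPM, whereas 0 members were with each of the 3 other scalings. Beside the 4, 28.7% of the 244 porcine miRNAs tested were lower by 1.5-fold or more. The smallest differences were those of ssc-let-7e at 0.823 (0.779 to 0.869), ssc-let-7d-3p at 0.820 (0.751 to 0.895) and ssc-let-7c at 0.807 (0.786 to 0.828). With DESeq2 size factors these 3 were marginally above 1, with TMM factors ssc-let-7e was at 1.00, and the other 6 members were lower with each scaling. No member was past 2-fold, against 14.8% of all porcine miRNAs tested. The median log2 fold was -0.53 over the members and -0.31 over all porcine miRNAs tested.

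The third comparison spanned the whole period from 63 to 161 d. The family total at 161 d was 0.719 times that at 63 d (0.713 to 0.724), and 8 of the 9 members were lower with intervals below 1. The lowest ratios were 0.536 (0.522 to 0.551) for ssc-let-7i, 0.562 (0.514 to 0.615) for ssc-let-7d-3p and 0.589 (0.558 to 0.621) for ssc-let-7d-5p. With each of the 4 scalings these 3 members were past 1.5-fold in the direction of lower levels, and none of the 9 was past 2-fold. With RPM, 25.6% of the 238 porcine miRNAs tested were lower by 1.5-fold or more, and 18.5% were past 2-fold. The 1.5-fold share was not computed with the other scalings. The ratio of ssc-let-7a was 0.671 (0.664 to 0.679) and that of ssc-let-7g 0.715 (0.696 to 0.735). The ratios nearest to 1 were 0.890 (0.876 to 0.905) for ssc-let-7f and 0.949 (0.899 to 1.00) for ssc-miR-98, whose interval held 1. The median log2 fold was -0.48 over the members and 0.01 over all porcine miRNAs tested. The 3 comparisons share libraries and are not independent of each other.

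**Figure D3:**
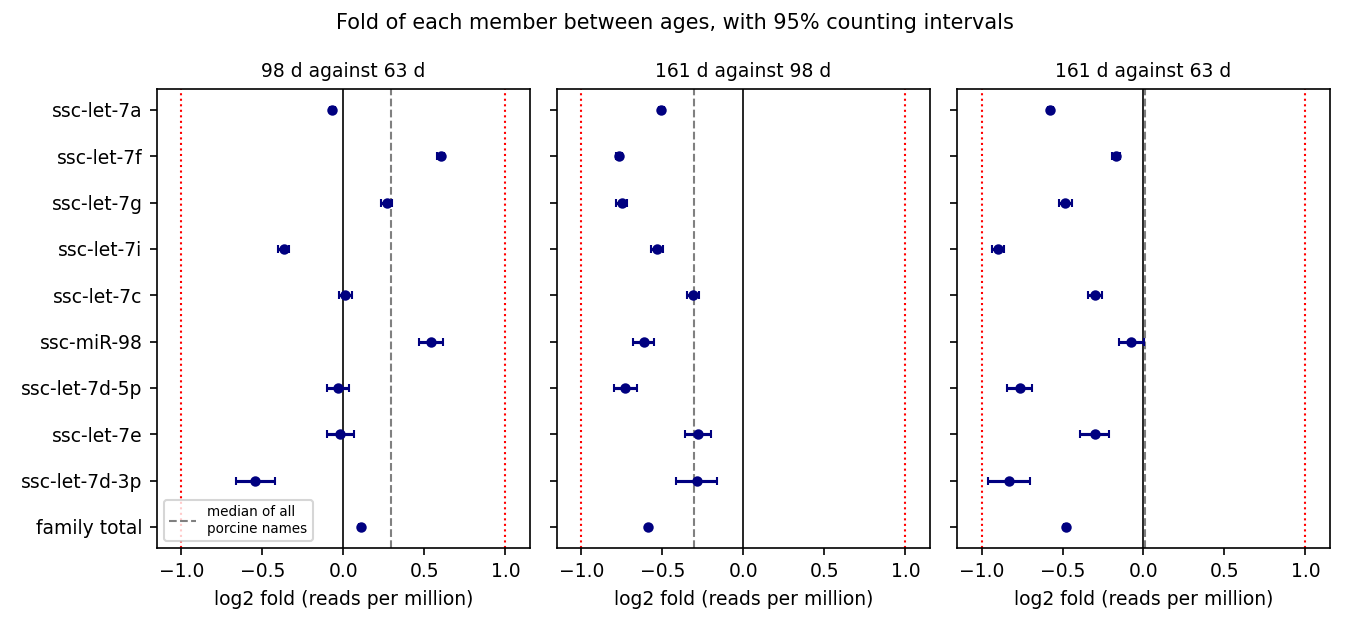
Log2 ratio of RPM of each member and of the family total for the 3 pairs of ages, with 95% counting intervals as bars, a dashed grey line at the median of all porcine miRNAs tested (0.29, -0.31 and 0.01) and dotted red lines at 2-fold. No member reached a dotted line, and all members lay left of 0 for 161 d against 98 d.

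Scaling set the level of all miRNAs at 98 d more than at the other ages. The median log2 fold of all porcine miRNAs from 63 to 98 d was 0.29 with RPM, 0.12 without ssc-miR-133a-3p in the total, 0.08 with TMM factors and 0.01 with DESeq2 size factors. Among porcine miRNAs past 2-fold in this pair, 80.5% were higher with RPM, but 59.0%, 56.4% and 41.0% with the other scalings in the same order. From 98 to 161 d that share was 16.7% with RPM and 23.5%, 40.0% and 46.4% with the others. The difference between the family total and the median of all porcine miRNAs does not change with scaling, and it was -0.18 from 63 to 98 d, -0.28 from 98 to 161 d and -0.49 from 63 to 161 d on the log2 scale. In these pairs 7, 7 and 9 of the 9 members were below that median. The lower family total at 161 d held with each scaling run. Its ratio was between 0.666 and 0.826 against 98 d and between 0.719 and 0.754 against 63 d. The normalised levels printed in the paper were not among these scalings. There ssc-let-7f was slightly higher at 161 d than at 63 d, and ssc-let-7c was nearly level from 98 to 161 d. The paper's levels of ssc-let-7a, ssc-let-7g and ssc-let-7i were lower at 161 d than at both earlier ages.

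**Figure D4:**
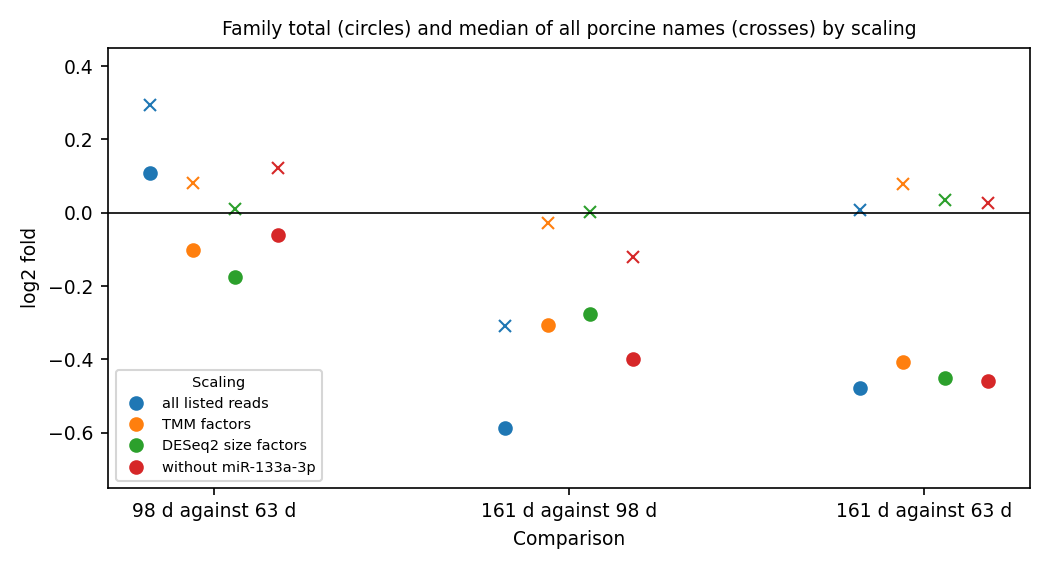
Log2 fold of the family total (circles) and median log2 fold of all porcine miRNAs tested (crosses) for the 3 pairs of ages, by scaling (colours). For 98 d against 63 d the circles lie at 0.11 with all listed reads and at -0.06, -0.10 and -0.17 with the other scalings, while all circles of the 2 other pairs lie below 0.

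Most reads of a member were copies of its representative read. The share was 72.7% (72.5 to 73.0) of the family reads at 63 d, 72.7% (72.5 to 72.9) at 98 d and 70.5% (70.2 to 70.7) at 161 d, the rest being reads of other length or with mapping errors. Single members lay between 58.0% for ssc-let-7d-3p at 63 d and 75.6% for ssc-let-7g at 98 d. Reads with mapping errors made up 9.79%, 9.50% and 10.2% of the family reads. Their share was highest in ssc-let-7i, at 19.5% (18.8 to 20.2), 19.0% (18.4 to 19.6) and 20.9% (20.1 to 21.7), against 7.93% to 8.61% for ssc-let-7f. The known sequence used for ssc-let-7i in the files was 19 nt long, 3 bases shorter than its representative read, and whether this bears on its error reads was not tested.

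The members are encoded at separate sites, several of them in clusters. The files give positions on the pig genome without naming the chromosome or the build, so only distances between hairpins are given, and host and neighbouring genes are named from the RefSeq annotation of Sscrofa11.1, in which all 10 hairpins were found by name. The hairpins of let-7a-2 and let-7f-2 lay 264 bases apart, and that of let-7d followed 2362 bases after let-7f-2. The hairpins of let-7f-1 and miR-98 lay 766 bases apart, and RefSeq places both inside HUWE1, the gene of a ubiquitin ligase. The let-7g hairpin lies inside WDR82, a gene of a histone methyltransferase subunit, and let-7c inside the uncharacterised LOC106508546. The let-7e hairpin was flanked by miR-99b at 78 bases and miR-125a at 374 bases, let-7c by miR-99a at 641 bases and let-7a-1 by miR-100 at 5221 bases. No miRNA neighbour or containing gene was found for let-7i.

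From 63 to 98 d ssc-miR-98 and ssc-let-7f were at 1.45 and 1.52, and reads of ssc-let-7f can come from the HUWE1 hairpin or from that near let-7d. In the same pair ssc-let-7d-5p from the let-7a-2 cluster was at 0.977 (0.932 to 1.02) and ssc-let-7a, whose reads can come from let-7a-1 or let-7a-2, at 0.954. Reads of the opposite (3p) arm, which differs between the 2 let-7f hairpins, were few. Before scaling they went from 18 at 63 d to 31.5 at 98 d for let-7f-1 in HUWE1, and from 25 to 65 for let-7f-2. Which hairpin the higher ssc-let-7f reads came from was not tested.

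The 2 hairpins of ssc-let-7a give the same mature read, and so do those of ssc-let-7f, which is why their loops and opposite arms are shown. Each hairpin is given as in the files, with the 22 nt of the member's read in capitals.
let-7a-1: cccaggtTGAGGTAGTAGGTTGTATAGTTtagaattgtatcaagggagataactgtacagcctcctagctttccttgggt
let-7a-2: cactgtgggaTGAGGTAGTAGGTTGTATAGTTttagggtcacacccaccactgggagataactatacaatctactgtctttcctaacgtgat
let-7f-1: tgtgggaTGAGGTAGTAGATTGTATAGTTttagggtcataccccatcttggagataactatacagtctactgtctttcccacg
let-7f-2: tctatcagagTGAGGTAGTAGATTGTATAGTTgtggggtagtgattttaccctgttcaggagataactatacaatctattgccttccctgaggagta

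Reads of the 5p arm were divided almost evenly between such hairpins, which the sequences cannot tell apart. The hairpin let-7a-2 received between 49.99% and 50.01% of the ssc-let-7a reads in the 3 libraries, and let-7f-2 received between 47.9% and 48.0% of the ssc-let-7f reads. These shares depend on how the authors' pipeline divided the reads and are not taken as a difference between the hairpins. The intervals of let-7f-2 lay below 50% in each library, at 47.3 to 48.6, 47.6 to 48.4 and 47.3 to 48.4. Where that deviation came from was not tested. The 3p arms differ in sequence and were counted under names of other species. The 3p reads of let-7a-2 numbered 128, 337.5 and 303 at 63, 98 and 161 d, while those of let-7a-1 numbered 1, 3.5 and 2. Thus let-7a-2 held 99.2% (95.7 to 99.9), 98.97% (97.2 to 99.6) and 99.3% (97.6 to 99.8) of the 3p reads of the pair. For ssc-let-7f the 3p reads numbered 25, 65 and 84 at let-7f-2 and 18, 31.5 and 35 at let-7f-1, so that let-7f-2 held 58.1% (43.3 to 71.6), 67.4% (57.5 to 75.9) and 70.6% (61.9 to 78.0). The interval at 63 d held 50%, whereas those at 98 and 161 d did not. Whether the 3p reads follow the output of each hairpin was not tested.

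**Figure D5:**
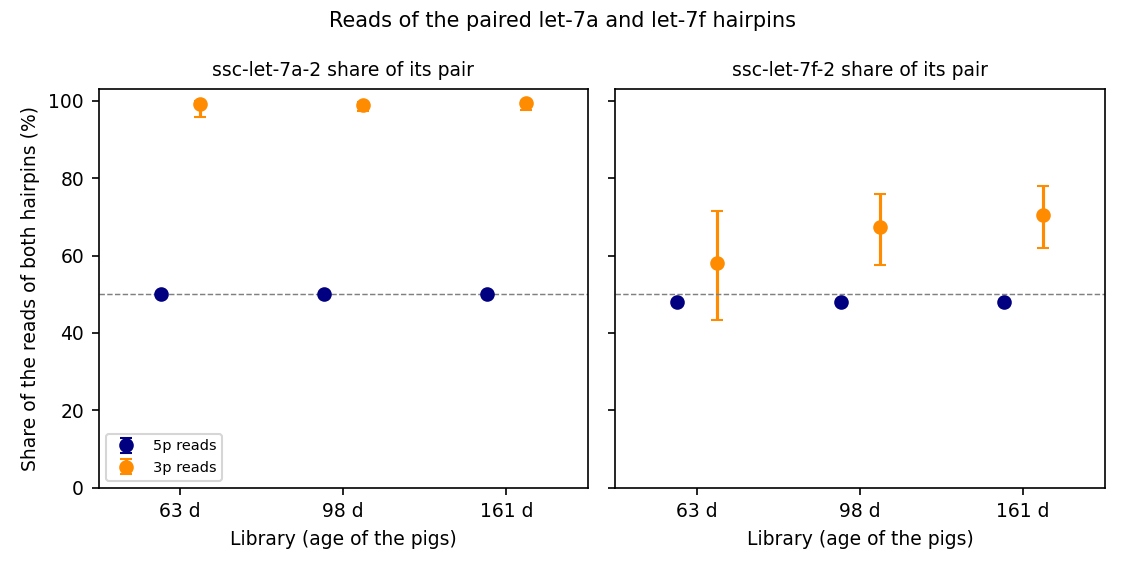
Share of let-7a-2 in the reads of let-7a-1 and let-7a-2 (left) and of let-7f-2 in those of let-7f-1 and let-7f-2 (right), in percent, for 5p reads (blue) and 3p reads (orange), with 95% Wilson intervals. The 5p shares lie between 49.99% and 50.01% on the left and near 48.0% on the right, and the 3p shares of let-7a-2 at 98.97% or above.

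The arms of let-7d were the exception to the low 3p levels. In its hairpin, shown with the 22 nt of ssc-let-7d-5p in capitals, the 3p arm is the source of ssc-let-7d-3p.
let-7d: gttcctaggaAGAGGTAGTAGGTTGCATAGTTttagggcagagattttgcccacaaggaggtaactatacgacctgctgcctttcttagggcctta

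Reads of ssc-let-7d-5p numbered 2842, 4582 and 2563.25 and those of ssc-let-7d-3p 1043, 1181 and 898 at 63, 98 and 161 d. The 3p arm therefore held 26.8% (25.5 to 28.3), 20.5% (19.5 to 21.6) and 25.9% (24.5 to 27.4) of the let-7d reads, with the 98 d library below both others. In the other 9 hairpins the 3p arm held at most 1.29% of the reads, the highest value being that of let-7e at 63 d. In all, the 3p reads of these 9 hairpins were 0.202%, 0.248% and 0.381% of the reads of the family hairpins.

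Porcine names did not hold all reads with the let-7 seed. Over the whole files, reads whose representative had GAGGTAG at bases 2 to 8 numbered 141453, 246363.5 and 156484, of which porcine names held 87.0% (86.8 to 87.2), 89.2% (89.1 to 89.4) and 86.7% (86.5 to 86.8). Most of the rest was let-7b, a member common to mammals for which no porcine name was listed, counted under a bovine and an ovine name. The sequence of the bovine name is shown because its level lay within the range of the main members.
bta-let-7b: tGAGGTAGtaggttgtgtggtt

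This read differed from ssc-let-7c by A17G alone and from ssc-let-7a by A17G and A19G. Together the 2 let-7b names had 12196, 10169 and 8606 RPM, above ssc-let-7i, ssc-let-7g and ssc-let-7c in each library. The ratio was 0.834 (0.818 to 0.850) from 63 to 98 d, 0.846 (0.830 to 0.862) from 98 to 161 d and 0.706 (0.691 to 0.720) from 63 to 161 d. These let-7b ratios are with RPM and were not computed with the other scalings. From 98 to 161 d ssc-let-7e, at 0.823 with RPM, was at 1.02 with DESeq2 size factors. The other names with this seed and at least 100 reads in a library were bta-let-7a-5p with 0, 1399.67 and 1151.17 reads, oan-let-7e-5p with 485, 265 and 187, and mmu-let-7c-5p with 14, 272.5 and 166. The names bta-let-7a-5p and oan-let-7e-5p had the same representative sequence, so the 0 at 63 d belongs to the name and not to the sequence, which under both names had 331, 688 and 597 RPM. The representative read of mmu-let-7c-5p had the same differences from ssc-let-7a as let-7b, A17G and A19G, and its reads were not added to the let-7b values.

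The miRNAs that lie beside let-7 genes in mammals differed from the let-7 member next to them in several pairs. From 63 to 98 d ssc-miR-99a went from 174 to 359 RPM, a ratio of 2.06 (1.79 to 2.38), while ssc-let-7c beside it was at 1.01 (0.981 to 1.04). The hairpin of miR-125b-1 lay 43031 bases from that of let-7a-1, much farther than miR-100. In the same pair of ages the ratio of ssc-miR-100 was 1.46 (1.34 to 1.59) and that of ssc-miR-125b 1.37 (1.31 to 1.43), beside 0.954 for ssc-let-7a. By contrast, ssc-miR-99b at 0.970 (0.898 to 1.05) and ssc-miR-125a at 1.01 (0.967 to 1.06) had intervals that held 1, as had ssc-let-7e between them at 0.986 (0.931 to 1.05). From 98 to 161 d the ratios of these 5 miRNAs lay between 0.733 for ssc-miR-99a and 0.948 for ssc-miR-100. Ratios of these 5 were computed with RPM alone, so whether those near 1 keep their direction with other scalings is not known. From 63 to 161 d ssc-miR-99a was higher at 1.51 (1.30 to 1.76), whereas ssc-let-7c beside it was at 0.813 (0.790 to 0.837). Likewise ssc-miR-100 was higher at 1.38 (1.27 to 1.51), beside 0.671 for ssc-let-7a. The interval of ssc-miR-125b, at 1.05 (0.998 to 1.10), held 1. Lower levels were found for ssc-miR-99b at 0.850 (0.784 to 0.922) and ssc-miR-125a at 0.9499 (0.907 to 0.995). Between them ssc-let-7e was also lower, at 0.812 (0.763 to 0.864). Reads of ssc-miR-125b and of ssc-let-7a can come from hairpins outside these clusters.

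Among the 41 other porcine miRNAs with at least 1000 RPM in every library, the profile most like that of the family total over the 3 ages was that of ssc-miR-128, with 5903, 6870 and 4374 RPM. Its centred log2 profile differed from that of the family by a root mean square of 0.04. Next were ssc-miR-30c-5p with 7485, 9378 and 6077 RPM and a difference of 0.09, and ssc-miR-126-3p with 2183, 2894 and 1976 RPM and 0.15. Of the members, ssc-let-7a and ssc-let-7g were closest to the total, at 0.07 and 0.08, and ssc-let-7d-3p was farthest at 0.27. The members are parts of this total, ssc-let-7a the largest, so their values cannot be set beside those of the other miRNAs. With 3 ages and 1 library each, such likeness is a description only.

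The libraries had the marker miRNAs of their labelled tissue. The 6 skeletal muscle markers summed to between 400457 and 465506 RPM, mostly ssc-miR-133a-3p, and all 6 were present in each library. The 3 red blood cell markers summed to between 39988 and 41978 RPM, mostly ssc-miR-486, which muscle also expresses. The other 2 were highest at 98 d, with 752, 1366 and 1001 RPM for ssc-miR-451 and 55.3, 124.9 and 68.7 RPM for ssc-miR-144. The sums were between 5833 and 9769 RPM for the 2 endothelial markers and between 985 and 1488 RPM for the 3 leukocyte markers listed of 4. The 2 smooth muscle markers summed to 9380, 11823 and 27194 RPM, mostly ssc-miR-143-3p, and were thus highest at 161 d, where the family was lowest. The other marker, ssc-miR-145-5p, had 464, 372 and 688 RPM and so was lowest at 98 d. Of 5 markers of epithelium and liver 2 were listed, at 34.1, 299 and 52.6 RPM, highest at 98 d. The part of these cell types in the let-7 levels was not tested, and in whole muscle fewer cells of a type and less RNA per cell cannot be told apart.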

How the data were processed

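Small RNA libraries of 3 ages were sequenced, and the authors processed reads with ACGT101-miR 4.2, mapping to miRBase hairpins and the pig genome; the genome build is not given in the sources used here. The deposited expected counts are reads of all isoforms per arm and hairpin, divided where a read maps to several hairpins. The deposited counts are whole copies of the representative read. Neither was normalised.

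Expected counts were summed over all hairpin rows of a name and scaled to the total of each file. Rows without a name in the 63 d file were read as further hairpins of the name above. Each library was assigned to its age by its title. Reads were rounded for exact conditional (Clopper-Pearson) intervals of ratios, and shares carry Wilson intervals. With 1 library per age no test over samples was run. A difference of 2-fold was the limit, over names with at least 10 reads in 1 library of the pair.

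All members were named, with 3 miRNAs of the most similar profile, the miRNAs that neighbour let-7 genes, and other names with the let-7 seed and at least 100 reads. Members and lists were chosen with earlier results of these data known. Scaling factors came from edgeR 4.0.16 (TMM) and DESeq2 1.42.0 in R 4.3.3. Other steps ran in Python 3.11.15 with scipy 1.17.1. The intervals were tested on simulated data that held counting error only, so the test does not cover PCR duplicates or the spread between pigs. Alternatives were 3 scalings, 1 hairpin per name, reads without mapping error, representative copies, a pseudocount of 1 RPM, a limit of 1.5-fold and other read minimums.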

Additional observations from a re-analysis of the deposited data

Results flagged for a closer look

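Reads with the let-7 seed under names of other species are no members of the family by name, yet they numbered 18408.8 at 63 d, 26528.5 at 98 d and 20843 at 161 d, far above the floor of 3 reads. Reads of the 3p arms of the member hairpins under names of other species numbered 251, 549 and 522 at 63, 98 and 161 d, also above that floor. Both lie outside the members compared between ages.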

How the results depend on the processing

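No paired analysis was possible because each age had 1 library, and no replicate could be left out for the same reason. For 63 to 98 d, 98 to 161 d and 63 to 161 d in this order, the ratio of the family total was 0.932, 0.809 and 0.754 with TMM factors, 0.886, 0.826 and 0.732 with DESeq2 size factors, and 0.959, 0.759 and 0.728 without ssc-miR-133a-3p in the total, so the first ratio reversed, and the cause was not tested. With the hairpin of most reads only it was 1.06 for the first pair and 0.712 for the third. With reads without mapping error it was 0.661 for the second pair, and with representative copies 0.646 for the second and 0.696 for the third. With the names of other species that carry the let-7 seed added, an alternative chosen after seeing the data, it was 1.05 for the first pair and 0.686 for the second.

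From 63 to 98 d 4 members were higher, and 2 with DESeq2 size factors. From 98 to 161 d none was higher, but 1 was with TMM factors and 3 were with DESeq2 size factors. Single members whose interval excluded 1 and that reversed with DESeq2 size factors were ssc-let-7g at 0.988 from 63 to 98 d, and ssc-let-7c at 1.00, ssc-let-7d-3p at 1.02 and ssc-let-7e at 1.02 from 98 to 161 d. With TMM factors ssc-let-7e was at 1.00 in the latter pair. Of all values of single members' ratios under the alternatives, 116 stayed within the counting interval, 68 moved outside it and these 5 reversed. From 63 to 98 d ssc-let-7c, whose interval held 1, was at 0.828 with DESeq2 size factors, 0.871 with TMM factors and 0.896 without ssc-miR-133a-3p in the total. With a limit of 1.5-fold 1, 4 and 3 members were past it with RPM. With TMM factors and without ssc-miR-133a-3p in the total these were 1, 0 and 3, and with DESeq2 size factors 2, 0 and 3, by-scaling counts added after seeing the data. For the first pair they were lower members in place of ssc-let-7f. Shares of all porcine miRNAs past 1.5-fold were computed with RPM only. With each other alternative run none was past 2-fold.

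With 1 hairpin per name the share of ssc-let-7a was 38.2%, 34.3% and 36.0% and that of ssc-let-7f 15.6%, 22.3% and 19.5% at 63, 98 and 161 d. With reads without mapping error these were 50.8%, 44.8% and 47.4% and 20.1%, 28.0% and 24.8%. The share of let-7 seed reads under porcine names was 88.4%, 90.5% and 88.2% by representative copies. Depth did not limit the members, and the spread between pigs was not measured.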
